A study of Mus musculus with 10 samples.

Results

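miR-126a and miR-191 are microRNAs (miRNAs) often read as signs of RNA from blood vessels and blood. The members described here are both arms of each hairpin, miR-126a-3p, miR-126a-5p, miR-191-5p and miR-191-3p, taken by name from 721 miRNAs listed in the series. All 4 were listed for both vesicle sources, among 679 miRNAs for brown adipose tissue (BAT) and 436 for plasma, with 394 miRNAs in both. The study sequenced the small RNA of small extracellular vesicles (sEV), membrane particles that cells release, of C57BL/6J mice. The 10 libraries form 4 groups named by their titles: Exe BAT (3 libraries), Sed BAT (3), Exe plasma (2) and Sed plasma (2). The series compares vesicles after exercise with those before it, so Exe is read here as the trained group and Sed as the group without training, although the labels carry a schedule of 90 min sessions, 2 a day over 4 weeks, on all samples. The labels give neither age nor sex, nor whether the replicates are separate animals, so each p-value speaks only of variation among these libraries, and that variation may be technical.

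An miRNA hairpin is cut into a duplex whose strands are called the 5p and 3p arms, and usually the strand loaded into an Argonaute protein persists while its partner is degraded. Targets are recognised mainly through the seed, the bases near the 5′ end. miR-126a lies inside Egfl7, a gene of endothelial cells, and its arms are known for supporting vascular integrity and angiogenic signalling. miR-191 is abundant in platelets and blood cells and is made beside miR-425. In vesicle RNA, fewer vesicles from a cell type and less of an miRNA per vesicle cannot be told apart.

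The mature sequences are shown because seed and strand set which arm each count stands for. They are RefSeq sequences on GRCm38.p6, matched by name for 3 of the 4 members, written 5′ to 3′ with the seed (bases 2 to 8) in capitals. miR-126b-3p and miR-425-3p come from the same loci as the members.
miR-126a-3p: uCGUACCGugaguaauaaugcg
miR-191-5p: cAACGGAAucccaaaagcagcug
miR-191-3p: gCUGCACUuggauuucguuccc
miR-126b-3p: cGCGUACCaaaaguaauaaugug
miR-425-3p: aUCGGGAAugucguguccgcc
No other mature miRNA in the RefSeq table had the seed of any of these 5. 

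The hairpins are given because the arms of each are compared below. Capitals mark the mature arms that the RefSeq table places in the hairpin, which for Mir126a is the 3p arm.
Mir126a: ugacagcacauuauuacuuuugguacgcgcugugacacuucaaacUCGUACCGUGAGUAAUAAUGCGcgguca
Mir191: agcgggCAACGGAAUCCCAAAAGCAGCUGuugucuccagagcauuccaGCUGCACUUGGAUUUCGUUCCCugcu
Mir126a lies at chr2:26591357-26591429 on the plus strand of GRCm38.p6. GENCODE annotates it within Egfl7, where 9 transcripts overlap it and 1 of them, a retained-intron transcript, is exonic there, and within an intron of Gm20532. On the minus strand, all 58 bases of the Mir126b hairpin lie inside Mir126a, and miR-126b-5p covers 19 positions of miR-126a-3p. miR-126b-3p lies at chr2:26591363-26591385, in the 5′ part of Mir126a. Its overlap with miR-126a-5p was not measured, because no position was matched for that arm. Mir191, at chr9:108568319-108568392 on the plus strand, lies in the long noncoding RNA 4833445I07Rik, as does Mir425, which starts 384 bases after the end of Mir191. The minus-strand miRNA gene Gm24083 overlaps Mir191. Whether the authors' counting used strand is not given in the sources used here, so miR-126a and miR-126b reads are uncertain where they overlap, and so are miR-191 reads.

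The libraries held 104064 to 172279 miRNA reads for BAT and 1209116 to 1798169 for plasma. The summed share of 7 red cell miRNAs was 14.1% to 15.0% in Exe plasma and 52.8% to 70.1% in Sed plasma, where miR-144-5p and miR-486a-3p were at 0, and 3.50% to 7.19% in BAT. In Sed plasma that sum was nearly all miR-451a, at 69.8% and 52.8% of reads, against 11.1% and 13.1% in Exe plasma. The 6 red cell miRNAs tested in plasma had a median log2 fold change, Exe against Sed, of 2.72, with 4 above 0 and 2 below. The part of this gap in the plasma results below was not tested. Summed brown fat miRNAs were 24.5% to 32.0% of reads in Exe BAT, 8.59% to 24.2% in Sed BAT and 0.122% to 0.663% in plasma. Sed BAT replicate 2 stood apart, with miR-378a-3p at 3.66% of its reads against 16.7% or more in each other BAT library.

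miR-126a-3p, the arm that restrains inhibitors of vascular growth signalling, was among the most abundant miRNAs of BAT vesicles. It ranked between 1 and 4 in every BAT library and between 5 and 19 in every plasma library. Its reads were 5597, 13157 and 12396 in Exe BAT, against 10530, 10914 and 8866 in Sed BAT. In plasma they were 21193 and 23371 in Exe libraries, against 13914 and 57315 in Sed libraries. As shares of miRNA reads these were 4.80%, 8.29% and 7.20% in Exe BAT, 6.22%, 10.5% and 7.64% in Sed BAT, 1.75% and 1.32% in Exe plasma, and 1.04% and 3.19% in Sed plasma. Every BAT share was above every plasma share, and in each source the Exe range overlapped the Sed range. How many other miRNAs split by source in their shares was not computed. Scaled by library size alone, the median log2 fold change of all miRNAs, BAT against plasma, was 3.84 in Sed and 2.42 in Exe libraries. On that scale miR-126a-3p lay below the median, at 1.95 and 2.15.

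miR-191-5p, the major arm of its hairpin, ranked 22 to 28 in BAT libraries and 6 to 14 in plasma libraries. It had 1146, 1263 and 1388 reads in Exe BAT, against 1008, 942 and 735 in Sed BAT. In plasma it had 45162 and 35584 reads in Exe libraries, against 18326 and 20022 in Sed libraries. Its shares were 0.983%, 0.795% and 0.806% in Exe BAT, 0.595%, 0.905% and 0.633% in Sed BAT, 3.74% and 2.01% in Exe plasma, and 1.37% and 1.11% in Sed plasma. Here every plasma share was above every BAT share, the reverse of miR-126a-3p, as the plot of levels by group shows.

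**Figure D1:**
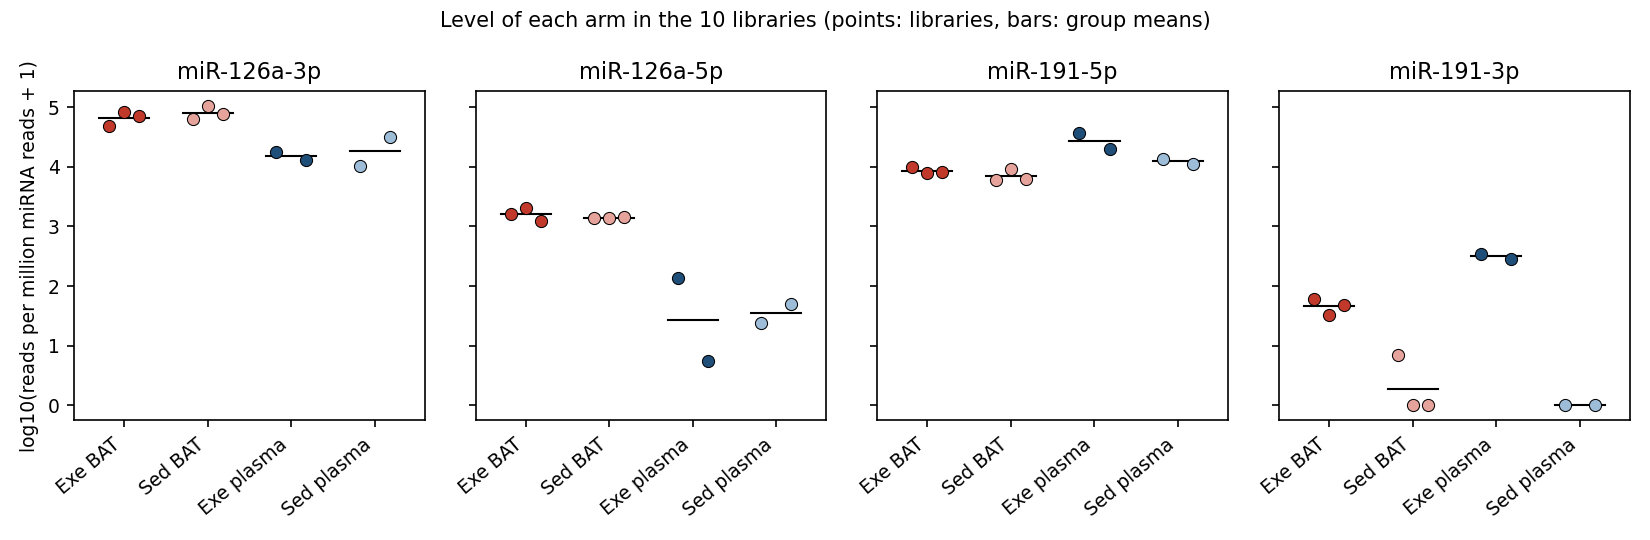
Level of the 4 arms in the 10 libraries, as log10(reads per 1000000 miRNA reads + 1) on the vertical axis, with groups on the horizontal axis; points are libraries and bars are group means on that scale. On this scale of shares miR-126a-3p sits highest in BAT (4.80% to 10.5% of reads), miR-191-5p in plasma (1.11% to 3.74%), and miR-191-3p is at 0 reads in both Sed plasma libraries. Scaled by library size alone, the median of all miRNAs was higher in BAT too, by 3.84 (Sed) and 2.42 (Exe) on the log2 scale. With TMM scaling over both sources, the BAT and plasma ranges of miR-126a-3p overlapped in each state.

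The minor arms were sparse. miR-126a-5p, which is known to act on the Notch ligand Dlk1 in endothelial cells, had 189, 319 and 214 reads in Exe BAT, against 230, 145 and 164 in Sed BAT. It had 161 and 8 reads in Exe plasma, against 31 and 88 in Sed plasma. The BAT groups overlapped, and the Exe plasma libraries lay on either side of the Sed plasma libraries. 

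miR-191-3p, the partner strand of miR-191-5p, had 7, 5 and 8 reads in Exe BAT, against 1, 0 and 0 in Sed BAT. In plasma it had 414 and 509 reads in Exe libraries, against 0 and 0 in Sed libraries. All Exe libraries were above all Sed libraries of their source. Scaled counts of the Exe and Sed groups likewise did not overlap for 44.2% of the miRNAs tested in BAT, where miR-191-3p was not tested, and 59.3% of those tested in plasma.

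The ratio of miR-126a-3p to miR-191-5p within a library does not depend on how libraries are scaled. It was 4.88, 10.4 and 8.93 in Exe BAT, 10.4, 11.6 and 12.1 in Sed BAT, 0.469 and 0.657 in Exe plasma, and 0.759 and 2.86 in Sed plasma. All 6 BAT libraries were above all 4 plasma libraries. The mean was 8.08 ± 2.86 in Exe BAT and 11.4 ± 0.830 in Sed BAT (SD, n = 3 each), and the ranges lay next to each other without overlap, the highest Exe BAT library at 10.42 and the lowest Sed BAT library at 10.45. In plasma it was 0.563 ± 0.133 in Exe and 1.81 ± 1.49 in Sed libraries (SD, n = 2 each). The plasma ranges did not overlap, with Sed plasma replicate 1 at 0.759 near Exe plasma replicate 2 at 0.657. This ratio was formed after the levels were seen and is given with no test. Scaled counts of single miRNAs did not overlap between Exe and Sed for 44.2% of those tested in BAT and 59.3% in plasma. That share was not computed for ratios of other miRNA pairs.

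Exercise was first compared within BAT vesicles. No member passed the threshold (adjusted p under 0.05) in edgeR's quasi-likelihood test, where 22.6% of 199 tested miRNAs did. Read counts per 1000000 reads scaled with edgeR's TMM factors (CPM) of miR-126a-3p averaged 70975 ± 19430 in Exe BAT and 76915 ± 8187 in Sed BAT (SD, n = 3 each). The log2 fold change was -0.12 ± 0.32 (SE), with an adjusted p of 0.786 from edgeR. For miR-126a-5p it was 0.32 ± 0.26 (edgeR adjusted p = 0.374). miR-191-5p averaged 9005 ± 922 CPM in Exe BAT and 6758 ± 322 CPM in Sed BAT, a log2 fold change of 0.41 ± 0.20 (edgeR adjusted p = 0.161). Its CPM ranges did not overlap, as for 44.2% of tested miRNAs, while its shares of reads did. Without Sed BAT replicate 2 its log2 fold change was 0.52 (edgeR adjusted p = 0.0997), and without Sed BAT replicate 1 it was 0.39 (edgeR adjusted p = 0.297). Over 9 alternatives of processing its adjusted p ran from 0.0982 to 0.553.

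miR-191-3p had too few reads in BAT for the filter on low counts. Its 20 reads in Exe BAT and 1 read in Sed BAT gave a ratio of 18.7, with a 95% counting interval of 2.99 to 774. Without the filter, its log2 fold change was 3.84 ± 1.08, with an edgeR adjusted p of 0.00778 over 679 miRNAs, of which 8.54% were called. It was 1 of 17 miRNAs listed for BAT with at most 4 reads over Sed BAT and at least 10 over all libraries, and 14 met the converse rule for Exe BAT.

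Other arms of the same loci were measured in BAT too. miR-425-3p, the 3p arm of the neighbouring hairpin, had 32, 49 and 44 reads in Exe BAT, against 20, 18 and 15 in Sed BAT, with no overlap. It rose by 1.13 ± 0.26 on the log2 scale (edgeR adjusted p = 0.0151) where 9.55% of tested miRNAs were called higher. The adjusted p was 0.0516 without Exe BAT replicate 2, 0.0502 without Exe BAT replicate 3 and 0.0530 with library size alone. miR-425-5p, the other arm, had 57, 74 and 55 reads in Exe BAT, against 60, 72 and 40 in Sed BAT, with a log2 fold change of 0.03 ± 0.27 (edgeR adjusted p = 0.924). miR-126b-3p, from the strand opposite miR-126a, had 13, 9 and 15 reads in Exe BAT, against 1, 2 and 1 in Sed BAT. Its ratio was 8.64, with a 95% counting interval of 3.10 to 33.4, and without the filter its log2 fold change was 3.03 ± 0.70 (edgeR adjusted p = 6.49e-04). miR-126b-5p had 1, 0 and 0 reads in Exe BAT, against 2, 0 and 0 in Sed BAT, too few for a fold.

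In plasma vesicles edgeR called 0.0% of 182 tested miRNAs, so no member passed. An unadjusted p under 0.05 was reached by 60 miRNAs, and DESeq2 called 59 and limma-voom 40. miR-126a-3p averaged 12160 ± 489 CPM in Exe plasma and 24321 ± 11525 CPM in Sed plasma (SD, n = 2 each). The log2 fold change was -1.0 ± 0.63 (edgeR adjusted p = 0.311). The CPM ranges did not overlap, as for 59.3% of tested miRNAs, but the shares of reads did. Without Sed plasma replicate 2, which held 57315 reads, the log2 fold change was -0.43, and without Exe plasma replicate 2 it was -0.42. It was -1.33 without Sed plasma replicate 1 and -0.76 without Exe plasma replicate 1. miR-191-5p averaged 22109 ± 4338 CPM in Exe plasma and 16321 ± 7041 CPM in Sed plasma, with a log2 fold change of 0.44 ± 0.62 (edgeR adjusted p = 0.640), which was 0.030 without Sed plasma replicate 2 and 1.04 without Sed plasma replicate 1. For miR-126a-5p it was 0.13 ± 2.21 (edgeR adjusted p = 0.966). 

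miR-191-3p was detected in Exe plasma and had no read in Sed plasma, so it passed the filter on low counts only through the Exe libraries, and its p is given as a description. With 923 reads over Exe plasma and 0 over Sed plasma, its level was at least 221-fold higher in Exe plasma, taking 3 reads over the group as the floor. edgeR's adjusted p was 0.0899, and 0.0301 without Exe plasma replicate 1. Over 9 alternatives in tool, scaling, filter and values it ran from 2.19e-05 with DESeq2 to 0.196. Within edgeR it was 0.0467 with a minimum mean count of 50, so the call changes with the tool, the filter and the libraries. It was 1 of 3 miRNAs, of 436, with 0 reads in Sed plasma and at least 10 reads in each Exe plasma library, and 14 miRNAs met the converse rule. miR-425-3p had 486 and 429 reads in Exe plasma, against 0 and 15 in Sed plasma, with a log2 fold change of 5.81 ± 2.58 (edgeR adjusted p = 0.179). It too passed the filter on low counts only through the Exe libraries, so its p-values in plasma are given as descriptions. That fold ran from 4.95 to 11.55 when 1 library was left out, the highest without Sed plasma replicate 2, and its adjusted p ran from 0.0133 with DESeq2 to 0.372 over 9 alternatives. miR-425-5p had 293 and 0 reads in Exe plasma, against 37 and 51 in Sed plasma.

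**Figure D2:**
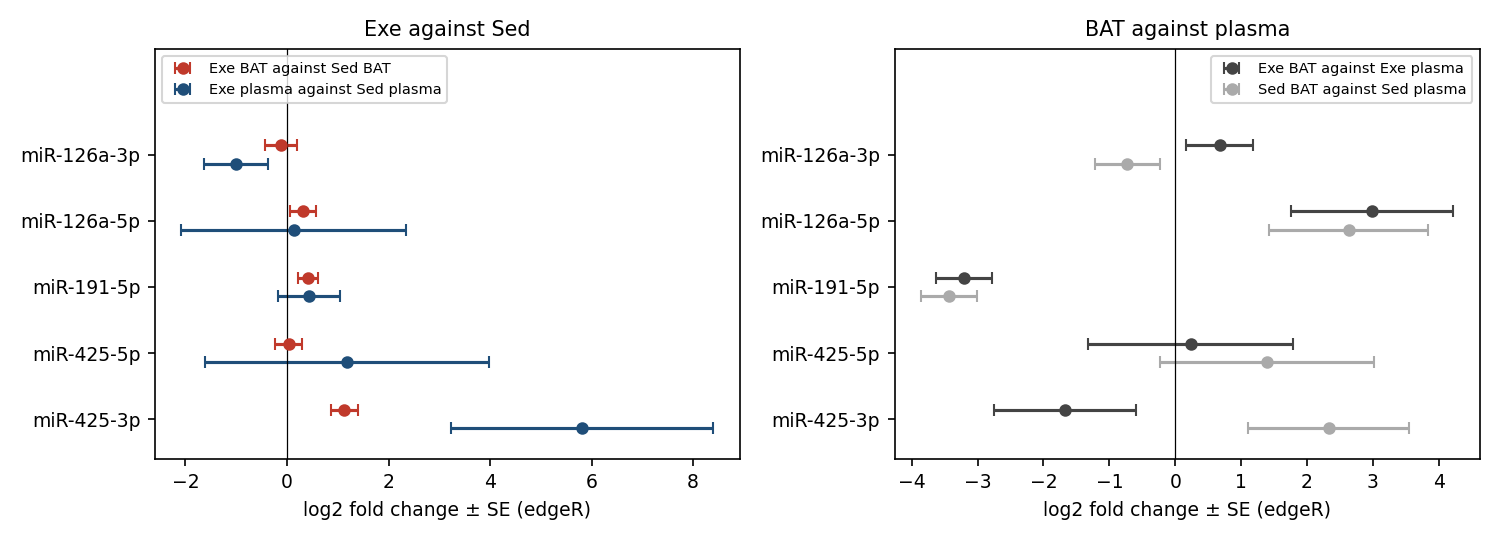
Log2 fold changes with standard errors from edgeR for 3 members and both arms of miR-425; the left panel shows Exe against Sed in each source and the right panel shows BAT against plasma in each state. miR-191-5p lies at -3.21 and -3.43 in the right panel, while miR-126a-3p lies at 0.68 in the Exe and -0.73 in the Sed comparison. miR-191-3p is left out because of its groups at 0 reads. In plasma, Exe against Sed, miR-425-3p passed the filter on low counts only through the Exe libraries.

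The exercise effects in BAT and in plasma were compared with an interaction term over 234 miRNAs, of which 29.1% were called, 16.7% with a positive and 12.4% with a negative difference. No member passed in edgeR. The difference, BAT minus plasma, was 1.41 ± 0.71 on the log2 scale for miR-126a-3p (edgeR adjusted p = 0.151) and 0.22 ± 0.58 for miR-191-5p (edgeR adjusted p = 0.781). It was 0.36 ± 1.54 for miR-126a-5p (edgeR adjusted p = 0.874). For miR-191-3p edgeR gave an adjusted p of 0.0583, and its fitted difference rests on the Sed libraries at 0 reads. miR-191-3p passed the filter on low counts of this joint fit only through the Exe plasma libraries, so its p-values here are given as descriptions. Over 8 alternatives the adjusted p ran from 0.0172 to 0.843 for miR-126a-3p and from 0.00217 to 0.131 for miR-191-3p. For miR-126a-3p the difference was 2.09 (edgeR adjusted p = 0.0166) without Sed plasma replicate 1 and 0.24 (0.778) without Sed plasma replicate 2. For miR-191-3p the adjusted p was 0.0491 without Sed BAT replicate 2, the library that stood apart.

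Vesicles from BAT were then compared with plasma vesicles in each state, in a joint fit in which the source cannot be told apart from the deposited table it came in. miR-191-5p was lower in BAT in both states. In trained mice its joint CPM averaged 5220 ± 779 in Exe BAT (SD, n = 3) and 48279 ± 26529 in Exe plasma (SD, n = 2), a log2 fold change of -3.21 ± 0.42 (edgeR adjusted p = 2.82e-04), where 66.7% of 234 miRNAs were called, 41.0% higher and 25.6% lower, and 79.5% did not overlap. In the Sed groups it averaged 3857 ± 421 in Sed BAT and 41548 ± 3319 in Sed plasma, a log2 fold change of -3.43 ± 0.42 (edgeR adjusted p = 2.26e-04), where 42.3% were called, 22.2% higher and 20.1% lower, and 68.4% did not overlap. Its BAT and plasma ranges did not overlap in either state. miR-191-3p was lower in Exe BAT than in Exe plasma by -4.20 ± 1.01 (edgeR adjusted p = 0.00552). It passed the filter of this fit only through the Exe plasma libraries, so that p is given as a description. With 1 read in Sed BAT and 0 in Sed plasma, no fold was taken between the Sed groups.

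miR-126a-3p did not pass in either state. Its log2 fold change was 0.68 ± 0.51 for Exe BAT against Exe plasma (edgeR adjusted p = 0.255) and -0.73 ± 0.49 for Sed BAT against Sed plasma (edgeR adjusted p = 0.248). Scaling by library size alone turned the Sed value to 1.95 (edgeR adjusted p = 0.00925) and gave 2.15 in the Exe comparison. It also moved the median of all miRNAs to 3.84 in the Sed comparison, against 1.21 with TMM, and to 2.42 in the Exe comparison, against 0.90. Relative to the median of all miRNAs with TMM, miR-126a-3p lay at -0.22 in the Exe and -1.94 in the Sed comparison, and miR-191-5p at -4.11 and -4.64. A change of scaling moves a miRNA and the median nearly alike, so those values bear little on the choice of scaling. Over 19 settings each, which include the filters, tools and libraries left out, miR-126a-3p lay between -2.99 and 2.39 relative to the median in the Exe comparison and between -2.43 and -0.54 in the Sed comparison. miR-191-5p lay between -6.56 and -1.49 in the Exe and between -5.95 and -3.45 in the Sed comparison. With library size alone miR-191-5p itself was at -0.79 in the Sed comparison and did not pass (edgeR adjusted p = 0.110). miR-126a-5p had log2 fold changes of 2.99 ± 1.23 (edgeR adjusted p = 0.0512) in the Exe and 2.63 ± 1.21 (edgeR adjusted p = 0.108) in the Sed comparison.

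The share of each hairpin's reads that came from its minor arm was compared next, since both counts are from the same library. miR-126a-5p made up 3.27%, 2.37% and 1.70% of miR-126a reads in Exe BAT, 2.14%, 1.31% and 1.82% in Sed BAT, 0.754% and 0.0342% in Exe plasma, and 0.222% and 0.153% in Sed plasma. All BAT libraries were above all plasma libraries. The log2 ratio of 3p to 5p reads (0.5 added to each) averaged 5.60 ± 0.46 in BAT (SD, n = 6) and 9.15 ± 1.81 in plasma (SD, n = 4), a difference of -3.55. The two-sided exact permutation p was 0.00476, the smallest this design allows, and 0.0159 after adjustment over 40 hairpins, of which 35.0% were called and 30.0% did not overlap. Between Exe BAT and Sed BAT the difference was -0.46 (exact permutation p = 0.300).

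miR-191-3p made up 0.607%, 0.394% and 0.573% of miR-191 reads in Exe BAT, against 0.0991%, 0 and 0 in Sed BAT. The upper limits of the 95% Clopper-Pearson intervals in Sed BAT were 0.551%, 0.391% and 0.501%, which reach or come close to the lowest Exe BAT share, so a lower share in Sed BAT was not separable from counting error library by library. In plasma it was 0.908% and 1.41% in Exe libraries and 0 in both Sed libraries, where the floor of 3 reads allows up to 0.0164% and 0.0150%, and the upper Clopper-Pearson limits drawn in the plot of shares are 0.0201% and 0.0184%. The log2 ratio of 3p to 5p reads was higher by 2.78 in Exe BAT than in Sed BAT, and by 2.08 with 1 added in place of 0.5, since this value depends on the Sed libraries at 0 reads. The exact permutation p was 0.100, the smallest for 3 libraries against 3 (adjusted p = 0.544), and 18.4% of hairpins did not overlap. In plasma, with both Sed libraries at 0, the difference was 8.78, or 7.78 with 1 added, with an exact permutation p of 0.333, the smallest for 2 against 2, where 52.3% did not overlap. The neighbouring miR-425 had a 3p share of 36.0%, 39.8% and 44.4% in Exe BAT, against 25.0%, 20.0% and 27.3% in Sed BAT. In plasma that share was 62.4% and 100% in Exe libraries, against 0 and 22.7% in Sed libraries. Its log2 ratio differed by 1.06 in BAT (exact permutation p = 0.100) and 9.22 in plasma (exact permutation p = 0.333). The plasma value rests on counts of 0 in Exe plasma replicate 2 and Sed plasma replicate 1: it was 8.21 with 1 added and ran from 4.71 to 13.73 over fits that left out 1 library. The intervals and floors account for counting error alone, because reads without molecular identifiers are not independent molecules.

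**Figure D3:**
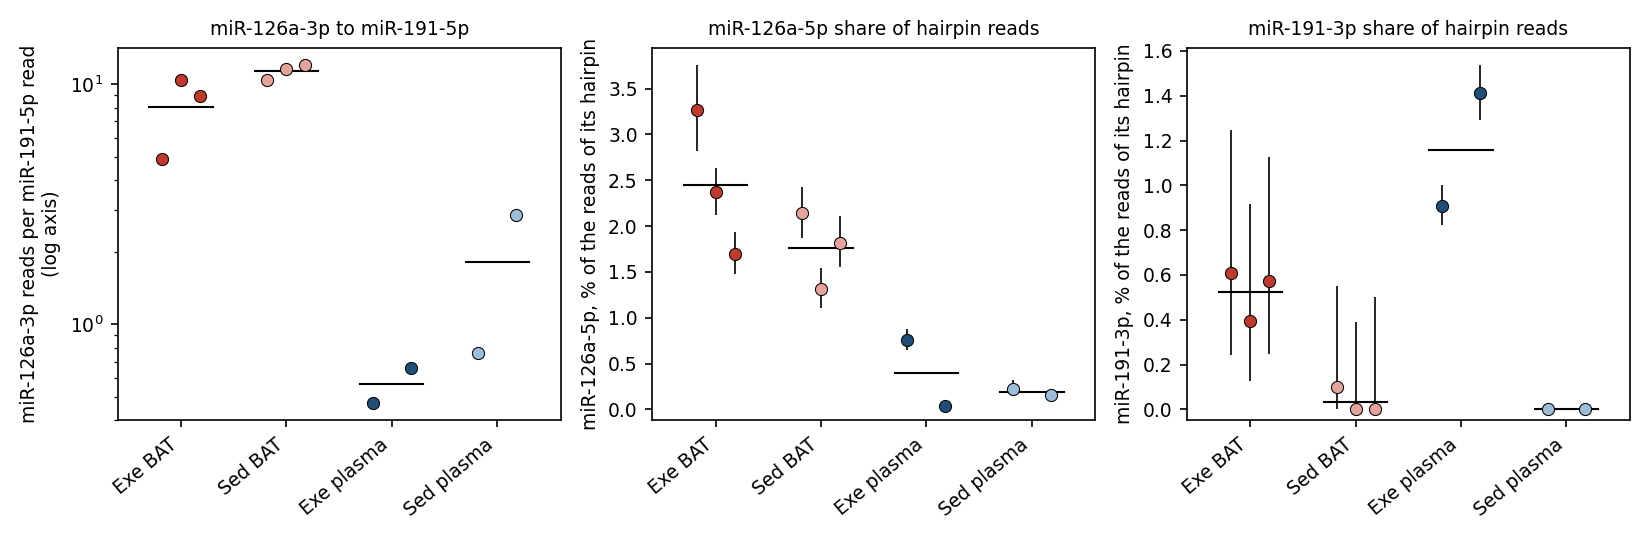
Reads of miR-126a-3p per read of miR-191-5p (left, log axis), miR-126a-5p as a percentage of miR-126a reads (middle) and miR-191-3p as a percentage of miR-191 reads (right), by group; points are libraries, horizontal bars are group means and vertical lines are 95% Clopper-Pearson intervals of a share. The ratio is 4.88 or more in BAT and 2.86 or less in plasma, and miR-191-3p is 0.394% to 1.41% in Exe libraries and 0.0991% or less in Sed libraries, where the upper interval limits reach 0.391% to 0.551% in Sed BAT.

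The other miRNAs of the endothelial and platelet lists, which share miR-24-3p and miR-92a-3p, were compared between Exe and Sed. In BAT, 0 of 10 tested endothelial miRNAs other than the members were called, where 22.6% of all miRNAs tested were, 9.55% higher and 13.1% lower. Of the 10, 6 were above 0 and 4 below, with a median log2 fold change of 0.11, beside -0.06 over all miRNAs tested. Those of smallest p were miR-23a-3p at 0.73 (edgeR adjusted p = 0.105), miR-24-3p at 0.68 (0.182), miR-23b-3p at 0.54 (0.238) and miR-27b-3p at 0.45 (0.302), from a pair of related clusters whose other member miR-27a-3p was at -0.13 (edgeR adjusted p = 0.785). Of 13 platelet miRNAs, 0 were called higher and 1 was called lower beside that same background. Of the 13, 10 were above 0 and 3 below, with a median of 0.27. The lower member was miR-142a-3p, a miRNA of blood cells, which fell by 1.19 ± 0.28 on the log2 scale (log2 fold change -1.19, edgeR adjusted p = 0.0154) to 145 ± 35.5 CPM in Exe BAT, against 333 ± 36.4 CPM in Sed BAT (SD, n = 3 each). Without any Exe BAT replicate in turn its adjusted p was 0.0771, 0.0520 and 0.0526, and it was 0.0532 with the replicate block and 0.0901 with library totals implied by RPM. miR-223-3p, of myeloid cells and platelets, was at 0.65 (edgeR adjusted p = 0.0888), and miR-185-5p was at 0.58 (0.0967).

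In plasma, 0 of 10 tested endothelial miRNAs and 0 of 11 tested platelet miRNAs were called by edgeR, as for all miRNAs. The median log2 fold change was 0.60 for the endothelial and -0.81 for the platelet list, beside 0.32 over all miRNAs. Of the endothelial miRNAs 6 were above 0 and 4 below, and of the platelet miRNAs 5 were above 0 and 6 below. Those named next are the ones of smallest p in each list. The lowest adjusted p, 0.0899, was shared by miR-27b-3p, at -3.15 ± 0.80 on the log2 scale, and miR-25-3p, at 3.90 ± 0.79. Over 9 alternatives the adjusted p ran from 0.0067 to 0.133 for miR-27b-3p and from 6.25e-06 to 0.0914 for miR-25-3p, and with 1 library left out miR-27b-3p passed in 2 and miR-25-3p in 3 of 4 fits. miR-10a-5p, of the Hox clusters, was at 3.51 ± 1.04 (edgeR adjusted p = 0.0915). miR-132-3p had 434 reads in Exe plasma, at 117 ± 132 CPM (SD, n = 2), and 1 read in Sed plasma. It passed the filter on low counts only through the Exe libraries, so its edgeR adjusted p of 0.145 is given as a description. miR-150-5p, of lymphocytes, was at 2.99 ± 1.04 (edgeR adjusted p = 0.115). miR-92a-3p was at 2.08 ± 0.89 (0.168), and miR-24-3p was at -1.62 ± 0.61 (0.123).

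The miRNAs whose profile over the 10 libraries was most like each major arm were found by the root mean square difference of centred log2(CPM + 1) values among 233 miRNAs. For miR-126a-3p these were miR-99a-5p (0.480), miR-26a-5p (0.556) and miR-27a-3p (0.701), beside a median of 2.26. The SD of miR-126a-3p itself was 0.661, so a flat profile would lie about as near as miR-26a-5p and miR-27a-3p. The 5p arm of miR-126a ranked 82. For miR-191-5p they were miR-204-5p (0.509), miR-652-3p (0.521) and miR-7a-5p (0.611), beside a median of 3.31, and miR-191-3p ranked 115. These are descriptions over libraries that share their scaling.

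The plasma table holds a second whole number beside each read count, whose meaning is not stated. For miR-126a-3p it was 85.6% and 84.4% of the read count in Exe plasma, against 72.3% and 4.78% in Sed plasma. For miR-191-5p it was 74.4% and 78.4% in Exe plasma, against 72.8% and 5.35% in Sed plasma. Summed over all miRNAs it was 71.0% and 61.1% in Exe plasma, against 30.2% and 4.67% in Sed plasma. The median over single miRNAs was 98.1% and 98.6% in Exe plasma (n = 161 and 127), against 31.25% and 16.2% in Sed plasma (n = 159 and 197). In Sed plasma replicate 2 both major arms thus lay near the library sum and below the median miRNA.

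**Figure D4:**
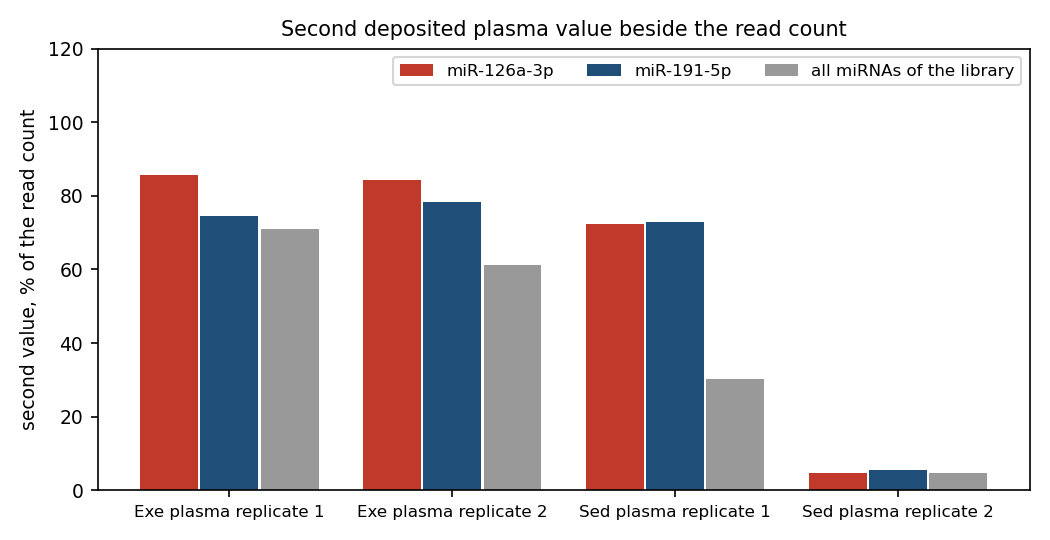
Second deposited plasma value as a percentage of the read count (vertical axis) in the 4 plasma libraries, for miR-126a-3p, miR-191-5p and all miRNAs. The bars of Sed plasma replicate 2 are 4.67% to 5.35% and those of the other libraries are 30.2% to 85.6%.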

How the data were processed

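Small RNA of BAT and plasma vesicles was sequenced in 10 libraries. The authors deposited read counts of mature miRNAs, 1 column per library, per the file headers. The BAT table as deposited also holds RPM values, each the read count over 1 total per library (18.9 to 21.2 in units of 1000000 reads). The second plasma values, also whole-number counts as deposited, were used only as an alternative. Per the submitters' processing notes, Bowtie 0.12.2 and the builds mm8 and mm9 were used, in roles those notes leave unstated. How reads were counted, whether by strand and with which filters, is not given in the sources used here.

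Counts were tested with edgeR 4.0.16 in R 4.3.3 (quasi-likelihood test, TMM scaling, filterByExpr, robust dispersions, Benjamini-Hochberg adjustment over all tested miRNAs, threshold 0.05), on each source for Exe against Sed and on the 394 shared miRNAs for comparisons across sources. The SE was the log2 fold change over the square root of F. Arm ratios used hairpins with at least 10 reads per library and a two-sided exact permutation test. DESeq2 1.42.0 and limma 3.58.1 were alternatives. The fits of Exe against Sed within each source were also run on simulated counts with known changes, with no outcome given here. The joint fit and the interaction were not simulated. Intervals are exact Clopper-Pearson at 95%, and 3 counts were the floor. Named miRNAs are the members, the arms of Mir126b and Mir425, list members past the threshold or among the 4 of smallest p, and the 3 most alike. The members and lists were chosen with earlier results of these data known.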

Additional observations from a re-analysis of the deposited data

How the results depend on the processing

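Counts of called miRNAs moved with the processing. The number tested changes with the filter. In Exe BAT against Sed BAT, 45 of 199 tested became 21 of 107 with a mean of at least 50 counts. In Exe plasma against Sed plasma, 0 of 182 became 59 with DESeq2, 4 with upper-quartile factors, 10 with library size alone and 40 with limma-voom. There it was 17 of 383 with no filter and 29 of 180 with a mean of at least 50 counts. It was 1 of 187 without the 3 most abundant miRNAs and 11 of 164 with the second plasma values. For Sed BAT against Sed plasma, 99 became 150 with DESeq2 and 152 with library size alone. For Exe BAT against Exe plasma, 156 of 234 became 82 of 156 with a mean of at least 50 counts. The cause was not tested.

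With the replicate number as a block, Exe BAT against Sed BAT gave 25 calls, Exe plasma against Sed plasma 7 and the difference of the exercise effect 34. Deviations from the group means of libraries with the same number correlated at 0.059, -0.21 and -0.19 in BAT and at -0.071 in plasma. In groups this small the deviations of 1 group sum to 0 and constrain each other. These values therefore cannot tell whether the numbers pair the libraries. Under the block miR-126a-5p was at -1.08 and miR-425-5p at -2.37 in Exe plasma against Sed plasma, the reverse of the unblocked sign.

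In Exe BAT against Sed BAT, miR-126a-3p was at 0.021 with upper-quartile factors, 0.0074 under a mean count of 50 or more and 0.15 with totals implied by RPM, and miR-425-5p was at -0.12 with library size alone. In Exe plasma against Sed plasma, miR-126a-5p was at -0.053 with DESeq2, -0.78 with upper-quartile factors, -0.16 with a mean of at least 50 counts, -1.07 with limma-voom and -0.087 with the second values. There miR-191-5p was at -0.41 with upper-quartile factors and miR-425-5p at -2.39 with limma-voom. miR-191-3p passed there with DESeq2, the 50-count minimum and limma-voom, with fitted values of 10.57, 11.49 and 9.27 that are no bounds.

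For the difference of the exercise effect, miR-126a-3p passed at 1.52 with DESeq2, 2.45 with upper-quartile factors and 1.64 with the 50-count minimum. miR-191-3p passed at -5.89 with DESeq2, -6.63 with library size alone, -5.60 with limma-voom and -6.80 without the 3 most abundant miRNAs. It entered those fits only through the Exe plasma libraries, so the calls are descriptions. Library size alone gave -0.70 for miR-126a-5p and -0.93 for miR-191-5p, and no filter gave -0.016 for miR-191-5p. miR-425-5p was at 0.25 with upper-quartile factors and 2.88 with limma-voom.

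In Sed BAT against Sed plasma, miR-126a-3p was at 1.95 with library size alone and 0.28 with a mean of at least 50 counts. miR-126a-5p passed at 3.12 with DESeq2, 5.27 with library size alone and 3.59 with the 50-count minimum, and miR-191-5p did not pass at -0.79 with library size alone. In Exe BAT against Exe plasma, miR-126a-3p passed at 1.36 with DESeq2, 1.90 with upper-quartile factors, 2.15 with library size alone and 1.93 with a mean of at least 50 counts. There miR-126a-5p passed at 3.87, 4.54, 4.57 and 4.33 with the same settings, at 3.02 with no filter, 4.61 with limma-voom and 3.05 without the 3 most abundant miRNAs.

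Leaving out each library in turn gave 16 to 56 calls in Exe BAT against Sed BAT, 3 to 27 in Exe plasma against Sed plasma, 36 to 119 for the difference and 77 to 149 in Sed BAT against Sed plasma. In Exe BAT against Sed BAT, miR-126a-3p ran from -0.25 to 0.15 and miR-425-5p from -0.051 to 0.30. In Exe plasma against Sed plasma, miR-126a-5p ran from -3.12 to 1.66, miR-425-5p from -8.73 to 2.76, the fitted miR-191-3p value from 11.57 to 11.86 and the arm ratio of miR-126a from -2.03 to 2.36. For the difference, miR-126a-3p ran from 0.24 to 2.09, miR-126a-5p from -0.40 to 4.51, miR-191-5p from -0.014 to 0.95, miR-191-3p from -7.36 to -4.15 and miR-425-5p from -1.87 to 8.28. In Sed BAT against Sed plasma, miR-126a-3p ran from -1.30 to 0.60 and miR-126a-5p from 2.20 to 3.56. In Exe BAT against Exe plasma, miR-126a-5p ran from 2.41 to 7.17 and miR-425-5p from -0.38 to 9.69. The arm ratio of miR-425 between all BAT and all plasma ran from -4.02 to 1.30. miR-191-5p stayed lower in BAT and past the threshold in all 10 such fits of each state, and the arm ratio of miR-126a between sources passed in all 10. Where a plasma group was left with 1 library, that library was assumed to vary like the others.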
